A study of Mus musculus with 40 samples.

Results

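The endoplasmic reticulum (ER) folding and unfolded protein response genes described here are 35 genes of the 23621 in the count table, chosen by name. They comprise 10 chaperones and co-chaperones, 2 lectin chaperones, 5 genes of disulphide exchange, 9 of ER-associated degradation, 4 stress sensors and factors and 5 of protein translocation. Messenger RNA was sequenced in 40 libraries of skeletal muscle from C57BL/6 mice. The 24 quadriceps libraries form 8 groups of 3. Sedentary controls (Sed) were taken at zeitgeber time (ZT, hours after lights on) 0, 4, 12 and 16. Treadmill mice (TM) had an exhausting run in a session at ZT0 or at ZT12. Their muscle was taken when the run ended (+0h, labelled ZT0.5 or ZT12.5) or 3 h later (+3h, labelled ZT3.5 or ZT15.5), and the sedentary group nearest in time of day served as control. The 16 gastrocnemius libraries form 4 groups of 4. All of these mice had a running wheel, open either at night (Night) or by day (Day), with muscle taken at ZT4 or ZT16. There is no group without a wheel in gastrocnemius. No genetic change is named for any group, and the labels give no age, running time or wheel distance.

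Total estimated counts ran from 27352875 to 79491649 per library in quadriceps and from 45010256 to 70033483 in gastrocnemius. Levels are given as CPM, the count scaled to the TMM-adjusted library size. Changes are log2 fold changes with their standard error (SE) from edgeR, and a gene is said to rise or fall where its p, adjusted over all genes tested, was under 0.05. The labels number the libraries of a group but do not say that each is a separate mouse. In the deposited column names each library has its own number tag, which the labels do not explain. The p-values measure the spread between these libraries, which may be technical if they are not separate mice. In whole muscle, fewer cells of a type and less RNA per cell cannot be told apart. The 8 summed myofibre markers, such as Acta1 and Ckm, held at least 133265 CPM in every library, whereas the 6 B cell and plasma cell markers summed to at most 4.29 CPM. Of the 35 genes, 34 passed the filter on low counts in both muscles. Derl3, a derlin of secretory cells, did not, with at most 0.214 CPM in any library.

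The ER is where secreted and membrane proteins enter the secretory pathway, fold, acquire disulphide bonds and sugars, and are checked. When unfolded proteins accumulate there, the sensors IRE1 (encoded by Ern1), PERK (Eif2ak3) and ATF6 signal to the nucleus, and IRE1 splices the Xbp1 mRNA into the form that encodes an active factor. The response raises chaperones, folding enzymes and the machinery that returns failed proteins to the cytosol for degradation. In skeletal muscle the sarcoplasmic reticulum is a specialised ER that stores calcium. Gene-level counts do not separate spliced from unspliced Xbp1.

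Many genes of the response carry the ER stress response element, ERSE, which ATF6 binds together with the general factor NF-Y. A search of the 250 bases upstream of the annotated start, in RefSeq sequences of GRCm38.p6, looked on both strands for its outer letters CCAAT and CCACG, in that order and with any 9 bases between them. An exact match was found for 9 of the 29 listed genes that have a window (31%), against 35 of 27025 genes in all (0.13%). The 9 stretches are shown because they include the main chaperones described below. Capitals mark the outer letters of the element, which reads CGTGG then ATTGG where the match lies on the other strand, and each stretch is written 5′ to 3′ along the gene.

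Hspa5, chr2:34772015-34772053, plus strand: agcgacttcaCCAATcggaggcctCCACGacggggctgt

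Hsp90b1, chr10:86705523-86705666, minus strand, with a pair of matches: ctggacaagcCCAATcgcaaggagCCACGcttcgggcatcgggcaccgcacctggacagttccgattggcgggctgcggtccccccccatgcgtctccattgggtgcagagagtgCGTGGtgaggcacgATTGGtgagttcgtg

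Calr, chr8:84847065-84847103, minus strand: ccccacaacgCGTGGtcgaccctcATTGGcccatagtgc

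Canx, chr11:50325790-50325828, minus strand: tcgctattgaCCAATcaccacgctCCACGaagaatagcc

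Creld2, chr15:88819510-88819548, plus strand: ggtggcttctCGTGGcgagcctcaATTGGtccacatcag

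Dnajc3, chr14:118937817-118937855, plus strand: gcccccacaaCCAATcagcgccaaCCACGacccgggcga

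Pdia6, chr12:17266481-17266519, plus strand: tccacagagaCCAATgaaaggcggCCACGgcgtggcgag

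Syvn1, chr19:6046522-6046560, plus strand: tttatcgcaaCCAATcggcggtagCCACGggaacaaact

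Derl3, chr10:75893232-75893270, plus strand: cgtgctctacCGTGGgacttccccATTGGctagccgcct

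The related element ERSE-II, ATTGG and CCACG with any 1 base between them, was found for Herpud1 and in 0.037% of all genes. The core of the element bound by XBP1, TGACGTGG, was found for none of the 29 and for 0.603% of all genes. The ATF4 element TGATGNAAT was likewise found for none of them and for 0.91% of all genes. No window was at hand for Atf6, Derl1, Hspa13, Hyou1, Manf and Sec61a1. A match is a description of the sequence only. Below, genes with an ERSE are those with an exact ERSE match. The search does not show that the others, Herpud1 among them, lack a variant or a more distant element.

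The first comparison asks what the muscle's ER genes did by the end of an exhausting morning run, as the lights came on. In the ZT0 session 16 of the 34 tested genes rose at +0h against Sed ZT0, and none fell, where 4.29% of all 15097 tested genes rose and 2.53% fell. The rises covered 8 of the 10 chaperones and co-chaperones, Calr, 3 of 5 genes of disulphide exchange, Edem1, Syvn1, Xbp1 and Sec61a1. They ranged from 0.22 (Dnajb11) to 0.84 (Edem1) on the log2 scale. In each of the 16, picked by the test on the same libraries, no treadmill library overlapped a sedentary one. The share of all genes so separated was not computed. The median change of the 34 genes was 0.22, against 0.00 for all genes.

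Hspa5, which encodes BiP, the main chaperone of the ER lumen, stood at 135, 148 and 153 CPM in the Sed ZT0 libraries. In the TM +0h libraries of that session it stood at 263, 272 and 189 CPM, a rise of 0.73 (SE 0.11, adjusted p = 0.0003). The third treadmill library was lower than the other 2 yet above every control. Hsp90b1, the ER paralogue of cytosolic HSP90, went from 98.5, 104 and 104 CPM to 156, 156 and 133 CPM (0.54, SE 0.08, adjusted p = 0.00055). Hyou1, which releases nucleotide from BiP, was at 25.8, 27.1 and 27.6 CPM in the controls and 42.6, 46.1 and 33.9 CPM after the run (0.61, SE 0.08, adjusted p = 0.0001). In all 3 chaperones TM +0h replicate 3 was the lowest of the run libraries.

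Creld2, a disulphide isomerase-like secreted ER protein, was measured at 5.03, 5.89 and 5.35 CPM in Sed ZT0 and at 10.7, 9.97 and 7.94 CPM at +0h (0.82, SE 0.13, adjusted p = 0.00081). Calr, the soluble lectin chaperone calreticulin and a calcium-binding protein, was at 111, 125 and 124 CPM in the controls and 165, 165 and 159 CPM after the run (0.44, SE 0.07, adjusted p = 0.00051). Syvn1, the ubiquitin ligase HRD1 of ER-associated degradation, went from 22.2, 22.4 and 23.9 CPM to 31.2, 30.5 and 27.2 CPM (0.38, SE 0.06, adjusted p = 0.001). None of these genes had overlapping groups. The largest rise, that of Edem1, which hands misfolded glycoproteins to degradation, was estimated with a wider error (0.84, SE 0.20), and Manf, a secreted factor held in the ER by BiP, rose by 0.77 (SE 0.13).

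Xbp1 was the only sensor or factor gene that rose at +0h, from 45.8, 45.8 and 49.9 CPM to 61.5, 63.4 and 55.3 CPM (0.35, SE 0.09, adjusted p = 0.02). That call was lost without Sed ZT0 replicate 1 or 2 or TM +0h ZT0 replicate 1 or 2. Ern1 was at 8.65, 7.52 and 7.79 CPM in the controls and 7.12, 8.03 and 7.31 CPM after the run, a change of -0.09 (SE 0.13) that did not pass. Atf6 stayed between 34.2 and 38 CPM in the 6 libraries, and Eif2ak3 between 5.43 and 7.55 CPM. Canx, the membrane-bound partner of Calr, had a change of 0.21 (SE 0.06, adjusted p = 0.054). Across the 18 genes that did not pass, changes lay between -0.14 (Dnajc10) and 0.24 (Eif2ak3).

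Among the 8 tested genes with an ERSE, 7 rose in this comparison, and Canx was the exception. Of the 20 genes with a window and no exact ERSE match, 6 rose. The number that rose was smaller without Sed ZT0 replicate 1 (9 genes) and without TM +0h ZT0 replicate 1 (9 genes). Summed markers of macrophages were 67.6 to 80.2 CPM in Sed ZT0 and 95.9 to 119 CPM at +0h, with 0 of 6 markers passing. Those of B cells and plasma cells were 1.49 to 2.22 CPM and 3.76 to 4.29 CPM, with 1 of the 4 tested raised (Cd79b) and 4 of the 6 under 0.5 CPM in every library of either group. Fibroblast markers summed to 906 to 1212 CPM and 1013 to 1474 CPM with 0 of 6 passing. Adipocyte markers summed to 1072 to 1730 CPM and 1036 to 3329 CPM, with a median change of 1.71, all 8 above 0, 6 of 8 at an unadjusted p under 0.05 and 0 of 8 passing. Slow fibre markers summed to 139 to 1476 CPM and 106 to 223 CPM, with a median of -2.19, none of 6 above 0 and 0 of 6 passing. The other lists had 1 raised (Myh4, of 8 myofibre markers) and 1 lowered (Kdr, of 6 endothelial ones). Their part in the result was not tested.

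**Figure D1:**
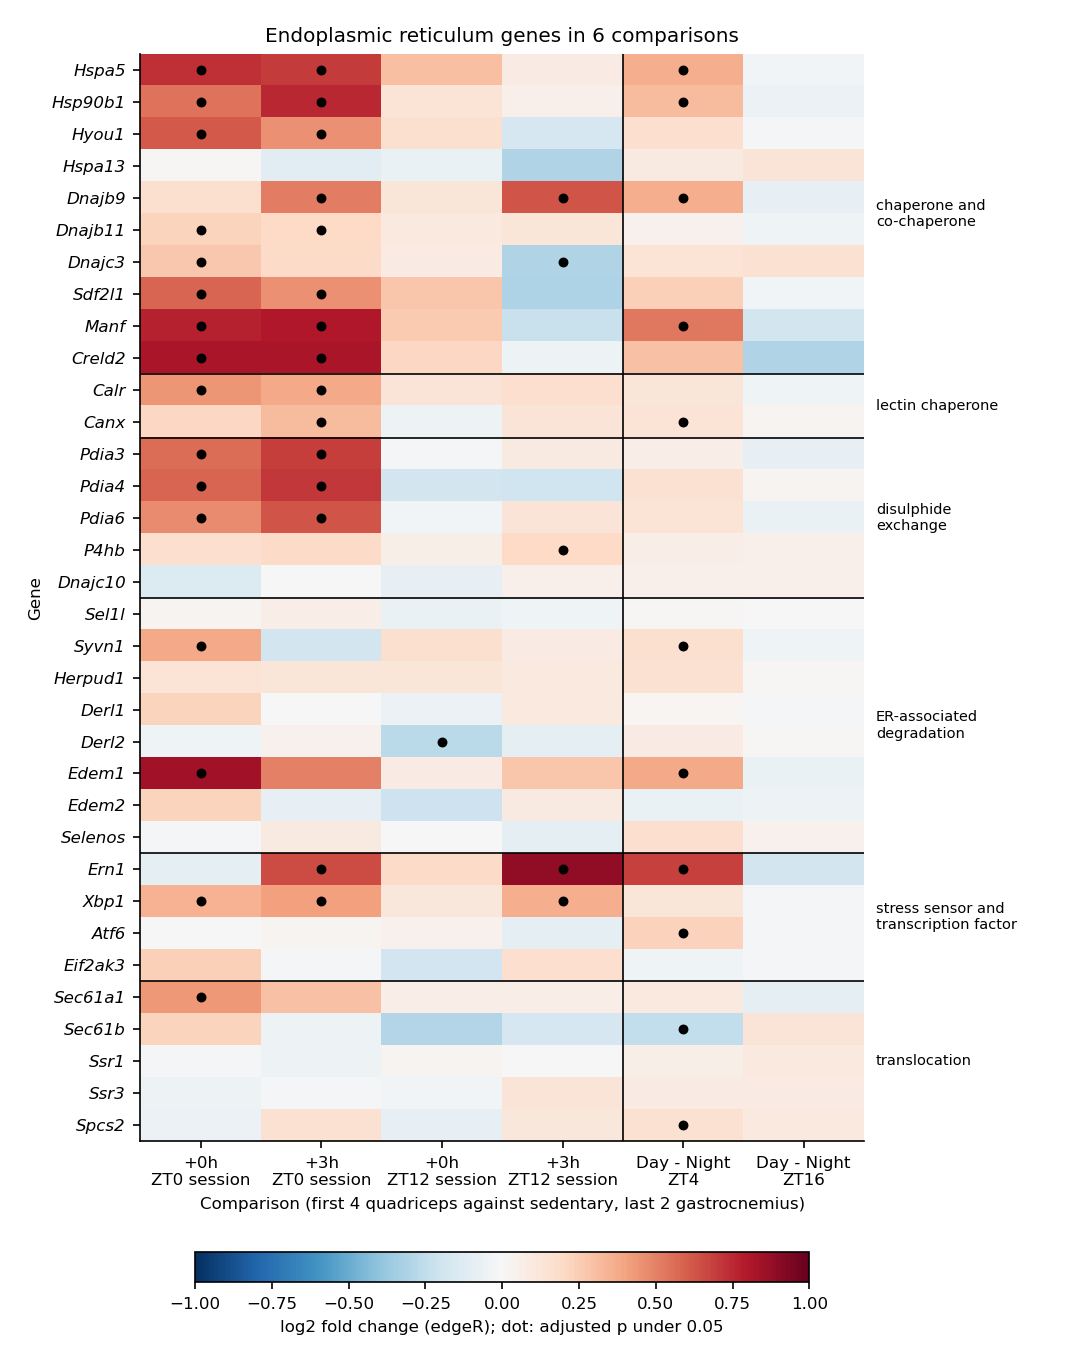
Heat map of the log2 fold change (colour, -1 to 1) of the 34 tested genes, in rows by role, for 4 treadmill comparisons against sedentary quadriceps and for Day against Night wheel access in gastrocnemius at ZT4 and ZT16. A dot marks an adjusted p under 0.05: 16 and 15 genes rose in the ZT0 session at +0h and +3h, and the ZT12 session has 1 and 5 dots.

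After a run in the ZT12 session, as the lights went off, no listed gene rose against Sed ZT12, where 3.19% of all genes did. One gene fell: Derl2, a channel component of ER-associated degradation, was at 12.2, 10.7 and 9.56 CPM in the controls and 8.75, 9.34 and 8.81 CPM after the run. Its change was -0.27 (SE 0.07, adjusted p = 0.036), beside 1.41% of all genes that fell. That call was lost without any one of 5 of the 6 libraries compared, all but Sed ZT12 replicate 3.

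The chaperones that rose in the ZT0 session had smaller estimates here. Hspa5 was at 135, 139 and 134 CPM in Sed ZT12 and at 169, 158 and 176 CPM after the run, groups that did not overlap, with a change of 0.30 (SE 0.11, adjusted p = 0.13). Hsp90b1 changed by 0.14 (SE 0.08), Hyou1 by 0.16 (SE 0.08), Manf by 0.26 (SE 0.13) and Creld2 by 0.21 (SE 0.14), none of which passed. Against Sed ZT16 in place of Sed ZT12 all 5 of these estimates were below 0, between -0.03 and -0.37, so their direction depends on the sedentary group. The sensor genes did not pass either, with Ern1 at 5.81, 8.07 and 7.93 CPM in the controls and 9.6, 7.23 and 8.03 CPM after the run (0.19, SE 0.13). Xbp1 was at 53.6, 45.9 and 40.8 CPM and then 49.7, 50.2 and 51.7 CPM. Atf6 lay between 33.6 and 37 CPM and Eif2ak3 between 5.18 and 6.22 CPM in these 6 libraries. None of the 8 tested genes with an ERSE passed, and of the 20 with a window and none 1 did.

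The difference between the sessions at +0h was tested directly, as the change in the ZT12 session minus that in the ZT0 session. None of the 34 genes passed, and 0% of all 15097 genes did in edgeR. At an unadjusted p under 0.05 there were 17 of the 34, beside 1912 of all 15097 genes, and DESeq2 called 0 of the 34. The 34 differences had a median of -0.25, against 0.01 for all genes. They ran from -0.76 (Pdia4, SE 0.21, approximate 95% interval -1.17 to -0.35, adjusted p = 0.26) to 0.28 (Ern1, SE 0.19). For Hspa5 the difference was -0.43 (SE 0.15, interval -0.72 to -0.14, adjusted p = 0.26). With these controls, the passes seen at +0h in the ZT0 session alone are thus not shown to be a difference between sessions. With the other sedentary groups as controls, Sed ZT16 for the ZT12 session and Sed ZT4 for the ZT0 session, 12 of the 34 passed, all lower in the ZT12 session, beside 3.01% of all genes that were lower. Hspa5 then differed by -0.80 and Manf by -1.38. The outcome of this test therefore depends on the sedentary groups. Adipocyte markers had a median difference of -3.18 in the test against Sed ZT0 and Sed ZT12, with none of 8 above 0, 7 of 8 at an unadjusted p under 0.05 and 0 of 8 passing. Their summed level was 1486 to 3791 CPM in Sed ZT12 and 706 to 1587 CPM at +0h of the ZT12 session, a median change of -1.40. Slow fibre markers had a median difference of 1.56, with 0 of 6 passing. The part of these markers in the result was not tested.

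The folding genes were still high 3 h after the ZT0 session. Against Sed ZT4, 15 of the 34 genes rose at +3h and none fell, where 6.96% of all genes rose and 6.63% fell, and the median change was 0.20 against 0.00 for all genes. The 2 comparisons of the ZT0 session share no library, and 12 genes rose in both, which is 75% of the 16 at +0h and 80% of the 15 at +3h. They were Calr, Creld2, Dnajb11, Hsp90b1, Hspa5, Hyou1, Manf, Pdia3, Pdia4, Pdia6, Sdf2l1 and Xbp1. The same shares over all genes that rose were not computed, so 75% and 80% are not shown to be particular to this list. Against Sed ZT0 in place of Sed ZT4, Sdf2l1 no longer passed at +3h (0.30, adjusted p = 0.14).

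Hsp90b1 was at 96.6, 90.9 and 108 CPM in Sed ZT4 and at 182, 157 and 156 CPM in TM +3h, a rise of 0.75 (SE 0.08, adjusted p = 8.6e-06). Hspa5 went from 135, 139 and 150 CPM to 269, 210 and 212 CPM (0.70, SE 0.11, adjusted p = 0.00016). Every treadmill library of these genes was above every control. The disulphide isomerases Pdia6 and Pdia3, the latter paired with calnexin and calreticulin on glycoproteins, behaved alike. Pdia6 was at 39.6, 35.8 and 38.8 CPM in the controls and 63.7, 57.9 and 54.8 CPM after the run (0.63, SE 0.09, adjusted p = 6e-05). Pdia3 was at 39.6, 39.6 and 42.2 CPM and then 78.1, 58.9 and 58.8 CPM (0.69, SE 0.11, adjusted p = 0.00027). In both genes TM +3h replicate 1 was the highest library.

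Creld2 was at 5.03, 4.34 and 5.54 CPM in Sed ZT4 and 9.9, 7.42 and 9.01 CPM at +3h (0.82, SE 0.13, adjusted p = 0.00034). Manf was at 9.43, 8.56 and 8.69 CPM and then 19.3, 12.1 and 15.2 CPM (0.80, SE 0.13, adjusted p = 0.00042). Its run libraries spread over a wider range than its controls without touching them. None of the 8 tested genes of ER-associated degradation passed at this time, including Edem1, whose change of 0.50 came from libraries at 18.7, 12.1 and 9.91 CPM against 8.85, 10.3 and 9.7 CPM. None of the 5 translocation genes passed.

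Ern1, the gene of the sensor IRE1, was at 7.67, 7.45 and 8.15 CPM in Sed ZT4 and 13.6, 11.4 and 11.6 CPM at +3h, a rise of 0.65 (SE 0.13, adjusted p = 0.0022). Xbp1, its target, rose by 0.41 (SE 0.09), from 47, 46.6 and 48.9 CPM to 68.8, 63.3 and 56.8 CPM. Dnajb9, a BiP co-chaperone that is a textbook target of XBP1, rose by 0.51 (SE 0.09). Atf6 lay between 33.4 and 38.4 CPM and Eif2ak3 between 6.38 and 8.13 CPM in these 6 libraries, with neither passing. Among the 8 tested genes with an ERSE 6 rose, and of the 20 with a window and none 7 rose.

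The library TM +3h ZT0 replicate 1 was the highest of its group for all 15 genes that rose. It also had the highest sums of fibroblast markers (1771 CPM), slow fibre markers (1257 CPM) and tendon markers (969 CPM) in its group. In Sed ZT4 these sums ran from 988 to 1280, 184 to 748 and 266 to 341 CPM, and 0 of the 6 markers of each list passed the test. Without that library 13 of the 34 genes rose, and the part of these markers in the result was not tested.

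**Figure D2:**
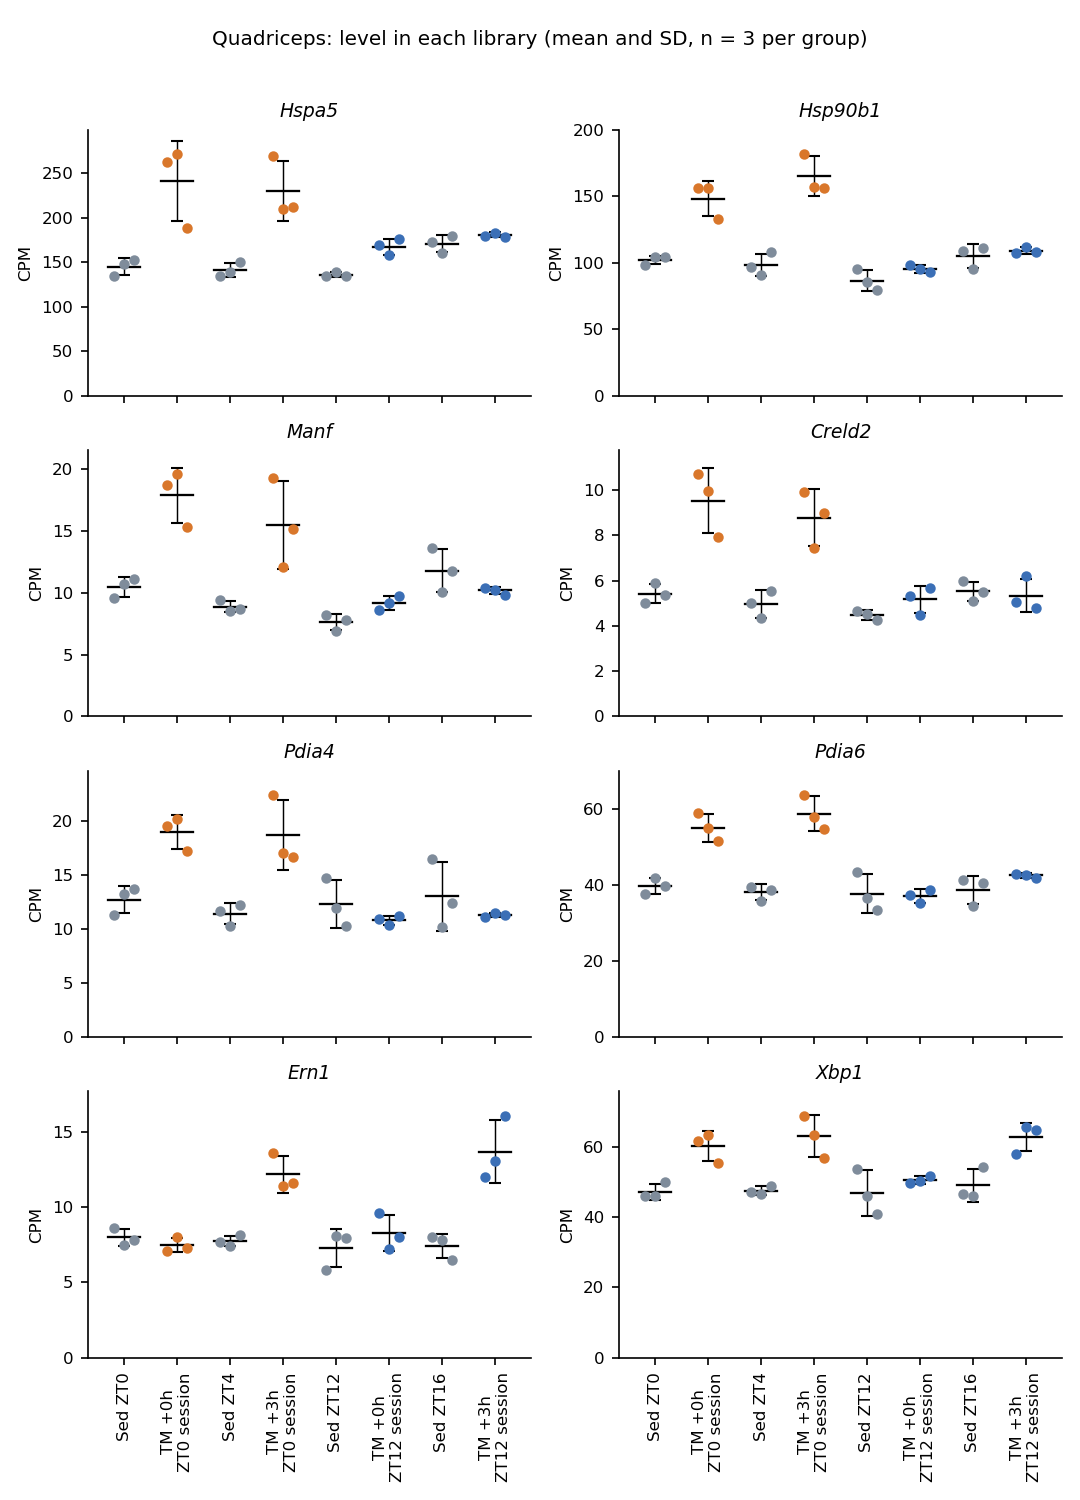
Level (CPM) of 8 genes in each of the 24 quadriceps libraries, by group. Points are libraries, grey for sedentary, orange for the ZT0 session and blue for the ZT12 session; lines and bars are the mean and SD of 3. Hspa5 reaches 189 to 272 CPM in the 6 run libraries of the ZT0 session and 158 to 183 CPM in those of the ZT12 session, whereas Ern1 is high at +3h of either session.

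Ern1, Xbp1 and Dnajb9 rose 3 h after the ZT12 session, whereas 8 of the 10 chaperones and co-chaperones did not pass against Sed ZT16. Against Sed ZT16, 4 of the 34 genes rose and 1 fell, where 8.7% of all genes rose and 8.53% fell, and the median change was 0.08 against 0.00 for all genes. This share is near the background. Ern1 was at 8, 7.79 and 6.52 CPM in the controls and 12, 13.1 and 16.1 CPM after the run, a rise of 0.89 (SE 0.13, adjusted p = 8.1e-05). Dnajb9 went from 20.9, 19.4 and 22.6 CPM to 28.5, 33.3 and 35.3 CPM (0.63, SE 0.09, adjusted p = 9.9e-05). Xbp1 went from 46.6, 45.9 and 54.3 CPM to 58, 65.5 and 64.6 CPM (0.36, SE 0.09, adjusted p = 0.0073). In these 3 genes, picked by the test on the same libraries, the groups did not overlap. They are also the 3 listed genes that rose at +3h of both sessions. The share of all genes that did so was not computed.

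P4hb, the founding protein disulphide isomerase, was at 163, 148 and 152 CPM in Sed ZT16 and 171, 182 and 179 CPM at +3h (0.20, SE 0.06, adjusted p = 0.037). That call was lost without TM +3h ZT12 replicate 2 or 3 and without Sed ZT16 replicate 2 or 3. Dnajc3, a luminal BiP co-chaperone also described as an inhibitor of PERK, fell from 39.5, 38.7 and 38.8 CPM to 31.4, 32.1 and 31.6 CPM, a change of -0.30 (SE 0.07, adjusted p = 0.0051). Its groups did not overlap, but against Sed ZT12 in place of Sed ZT16 its change was -0.03 (adjusted p = 0.81). Hspa5 was at 173, 160 and 179 CPM in the controls and 180, 183 and 178 CPM after the run, a change of 0.08 (SE 0.11) with overlapping groups. Atf6 lay between 34.1 and 39 CPM and Eif2ak3 between 5.09 and 6.95 CPM, neither passing. With an ERSE, 0 of the 8 tested genes rose and 1 fell, and of the 20 with a window and none 4 rose. Against Sed ZT12 in place of Sed ZT16, 10 genes passed, 9 raised and 1 lowered (Sec61b, -0.57), so this count depends on the sedentary group. The raised ones then included Hspa5 (0.41), Hsp90b1 (0.33), Manf (0.41), Dnajb11 (0.20) and Calr (0.27), none of which passed against Sed ZT16. Myofibre markers summed to 139635 to 162633 CPM in Sed ZT16 and 172042 to 195679 CPM at +3h, with 3 of 8 raised (Acta1, Ckm and Myh4). Pecam1 was raised and Emcn lowered among 6 endothelial markers, Adgre1 was lowered among 6 macrophage markers, and Notch3 among 5 of smooth muscle and pericytes. Slow fibre markers summed to 96.1 to 1868 CPM and 139 to 409 CPM, with a median change of -1.58 and 0 of 6 passing. The part of these markers in the result was not tested.

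The sessions were then compared at +3h, again as the ZT12 change minus the ZT0 change. Of the 34 genes 9 had a lower change in the ZT12 session and none a higher one, where 0.941% of all genes were lower and 0.649% higher. They were 7 of the 10 chaperones and co-chaperones and the isomerases Pdia4 and Pdia6. The median difference over the 34 genes was -0.14, against 0.01 for all genes. The 2 responses share no library. The result rests on the sedentary groups nearest in time of day, Sed ZT4 and Sed ZT16: with Sed ZT0 and Sed ZT12 in their place none of the 9 passed. There 1 of the 34 did, Sec61b (-0.71, adjusted p = 0.029), beside 0.484% of all genes that were lower. The differences were then -0.36 for Hsp90b1, -0.25 for Hyou1 and for Hspa5, -0.16 for Manf, -0.05 for Dnajc3, -0.43 for Creld2, -0.67 for Pdia4, -0.39 for Pdia6 and 0.03 for Sdf2l1.

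Hsp90b1 had the smallest p, with a difference of -0.70 (SE 0.12, adjusted p = 0.0044): it changed by 0.05 in the ZT12 session, from 109, 95 and 111 CPM to 107, 112 and 108 CPM. Hyou1 differed by -0.63 (SE 0.11, adjusted p = 0.005). It was at 25.4, 25.9 and 24.8 CPM in Sed ZT4 and 36.9, 32.4 and 35.4 CPM in TM +3h ZT0. In the evening session it was at 31.4, 29 and 29.1 CPM and then 27.2, 27 and 25.6 CPM, a change of -0.17 (SE 0.08) that did not pass. Every run library of Hyou1 was above its controls in the ZT0 session and below them in the ZT12 session.

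Manf had the largest difference, -1.02 (SE 0.19, adjusted p = 0.0068). It was at 13.6, 10.1 and 11.8 CPM in Sed ZT16 and 10.4, 10.2 and 9.81 CPM in TM +3h ZT12. Those groups overlapped, and its change of -0.22 (SE 0.13) did not pass. Creld2 differed by -0.86 (SE 0.19, adjusted p = 0.024), with 5.97, 5.11 and 5.48 CPM in Sed ZT16 and 5.05, 6.19 and 4.78 CPM in TM +3h ZT12. Pdia4, an isomerase found in complex with BiP, differed by -0.91 (SE 0.21, adjusted p = 0.033). It was at 11.7, 10.3 and 12.2 CPM in Sed ZT4 and 22.4, 17 and 16.7 CPM in TM +3h ZT0. The evening values were 16.5, 10.2 and 12.4 CPM in Sed ZT16 and 11.1, 11.5 and 11.3 CPM in TM +3h ZT12. One sedentary library, Sed ZT16 replicate 1, was well above the rest of its group for Pdia4.

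Dnajc3 differed by -0.48 (SE 0.10, adjusted p = 0.016), with 33.7, 35.9 and 38.6 CPM in Sed ZT4 and 43.6, 41.1 and 38.3 CPM in TM +3h ZT0. Hspa5 (-0.62, SE 0.15, adjusted p = 0.036), Sdf2l1 (-0.77, SE 0.19, adjusted p = 0.041) and Pdia6 (-0.49, SE 0.12, adjusted p = 0.041) passed more narrowly. The call for Sdf2l1 was lost without any one of the 12 libraries but TM +3h ZT12 replicate 1. That for Pdia6 was lost without any but TM +3h ZT0 replicate 3 or Sed ZT16 replicate 2. That for Hspa5 was lost without any but TM +3h ZT0 replicate 2 or 3 or Sed ZT16 replicate 2. That for Pdia4 was lost without any but replicate 2 or 3 of TM +3h ZT0 or of Sed ZT16. Sdf2l1, a chaperone cofactor of the lumen, changed by -0.31 in the ZT12 session, Pdia6 by 0.13 and Pdia4 by -0.20, none of which passed. Pdia3 just missed the threshold for the difference (-0.60, SE 0.15, adjusted p = 0.054).

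Ern1, Dnajb9 and Xbp1 did not pass this test. The difference was 0.23 for Ern1 (approximate 95% interval -0.13 to 0.59), 0.11 for Dnajb9 (-0.15 to 0.37) and -0.05 for Xbp1 (-0.29 to 0.19). These intervals do not show that the sessions acted alike on them. Of the 8 tested genes with an ERSE 5 had a lower change in the ZT12 session, and of the 20 with a window and none 2 did.

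The count of 9 fell to 4 without TM +3h ZT0 replicate 1, Sed ZT4 replicate 1, Sed ZT4 replicate 2, TM +3h ZT12 replicate 3 or Sed ZT16 replicate 1, and to 5 without Sed ZT4 replicate 3, TM +3h ZT12 replicate 1 or TM +3h ZT12 replicate 2. With Sed ZT4 and Sed ZT16 as controls, Hsp90b1, Hyou1 and Manf stayed past the threshold without any one of the 12 libraries. Tendon markers had a median difference of -1.28 and slow fibre markers of -1.86, with 0 of 6 passing in each list; their part in the result was not tested.

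**Figure D3:**
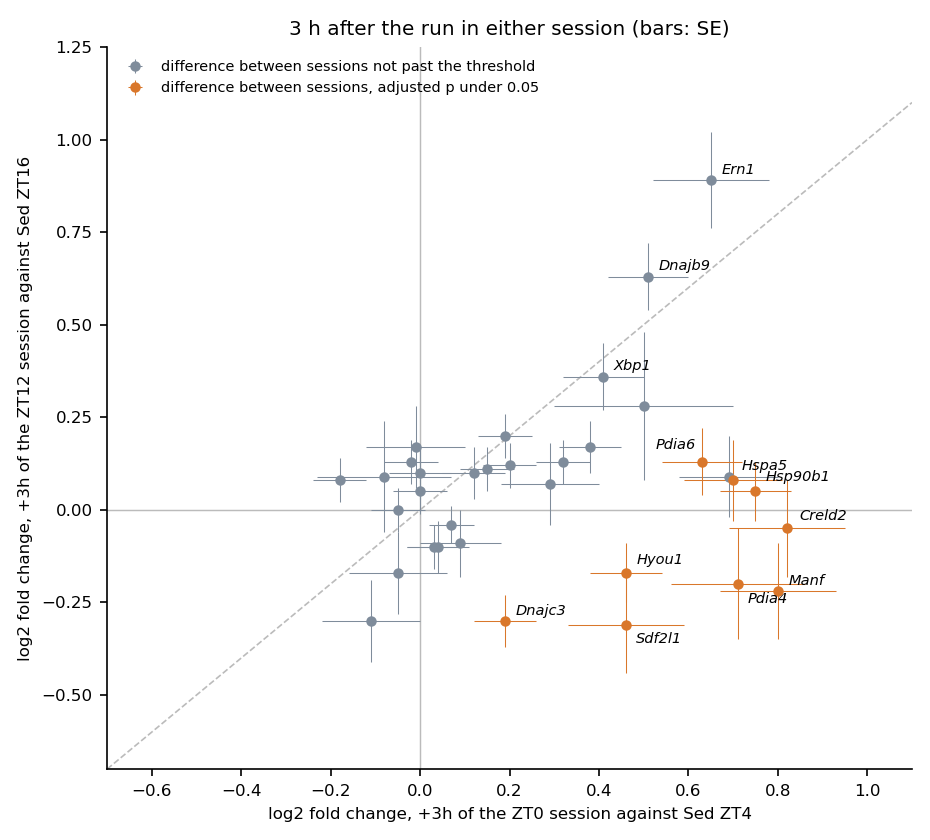
Change at +3h in the ZT0 session (x axis, log2 fold change against Sed ZT4) and in the ZT12 session (y axis, against Sed ZT16) for the 34 tested genes; bars are SE and the dashed line marks equal change. The 9 genes in orange, whose changes differed between sessions with these controls, lie below the line, whereas Ern1 and Dnajb9 lie above it without passing the test of the difference.

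Within a session, the change at +3h minus that at +0h passed for few genes, and the shares of the 34 were near the background or below it. In the ZT0 session 2 of the 34 passed (5.88%), beside 5.7% of all genes. Ern1 had a later rise (difference 0.74, SE 0.19, adjusted p = 0.02), and Syvn1 an earlier one (-0.56, SE 0.09, adjusted p = 0.00068). Syvn1 was at 25.1, 23.9 and 25.7 CPM in Sed ZT4 and at 21, 22.4 and 22.3 CPM at +3h, where every run library was below its controls. After the ZT12 session 3 passed (8.82%), beside 10.2% of all genes. Ern1 (0.70, SE 0.18, adjusted p = 0.018) and Dnajb9 (0.51, SE 0.13, adjusted p = 0.017) were later, and Dnajc3 was lower at +3h than at +0h (-0.38, SE 0.10, adjusted p = 0.017).

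Dnajb9 was at 23.4, 24.8 and 21.6 CPM in Sed ZT12 and 26.6, 25.4 and 23.8 CPM at +0h, groups that overlapped. Dnajc3 was at 33.7, 29.3 and 34.4 CPM and then 32.6, 36.8 and 33.4 CPM in the same libraries. In the ZT0 session 1 gene remained without Sed ZT0 replicate 1, TM +0h ZT0 replicate 1 or Sed ZT4 replicate 2. After the ZT12 session none remained without Sed ZT12 replicate 2, and 1 without TM +0h ZT12 replicate 2 or TM +3h ZT12 replicate 3.

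A list of 73 other ER genes, covering glycosylation, further folding enzymes, degradation, translocation and stress signalling, was read in the same fits. At +0h of the ZT0 session 12 of the 73 rose (16.4%, beside 4.29% of all genes) and none fell, with a median of 0.08. At +3h 11 rose (15.1%, beside 6.96%) and 2 fell (2.74%, beside 6.63%). The ZT12 session had 3 that rose at +0h (4.11%, near the background of 3.19%), and at +3h 14 rose (19.2%, beside 8.7%) and 5 fell (6.85%, beside 8.53%). For the difference between sessions at +3h 1 of the 73 was lower (1.37%, beside 0.941%), a share near the background.

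Ppp1r15a, which encodes GADD34, the phosphatase subunit that reverses PERK signalling, rose in each treadmill comparison: by 0.89 and 0.92 in the ZT0 session and by 1.04 and 1.37 in the ZT12 session, at +0h and +3h. Its mean was 36.6 CPM in Sed ZT0 and 67.8 CPM in TM +0h ZT0. Atf4, the factor translated when PERK is active, rose by 0.21 and 0.26 in the ZT0 session and by 0.32 at +0h of the ZT12 session. At +0h of the ZT0 session the others with the smallest p were Txndc11, a thioredoxin-like gene (0.43, SE 0.08), Prkcsh, the beta subunit of glucosidase II (0.31, SE 0.06), and Rpn2, of the oligosaccharyltransferase (0.32, SE 0.06). Ube2j1, a ubiquitin-conjugating enzyme of ER-associated degradation, rose by 0.33 (SE 0.08) at +0h of the ZT12 session.

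At +3h of the ZT0 session Txndc11 rose by 0.44 (SE 0.08) and Ube2g2, another such enzyme, by 0.26 (SE 0.05). At +3h of the ZT12 session Txndc11 rose by 0.50 (SE 0.08), Marchf6, an ER ubiquitin ligase, rose by 0.31 (SE 0.06) and Fkbp14, a collagen prolyl isomerase, fell by 0.63 (SE 0.13). Ddit3, which encodes the stress factor CHOP, was the gene that differed between sessions at +3h, by -1.18 (SE 0.27, adjusted p = 0.032). Its mean was 8.1 CPM in Sed ZT4 and 12 CPM in TM +3h ZT0, against 16.2 CPM in Sed ZT16 and 10.5 CPM in TM +3h ZT12.

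Sesn2, a stress-induced regulator of growth signalling, had the smallest p among the 73 for +3h minus +0h in the ZT0 session (-1.31, SE 0.26, adjusted p = 0.004), and Ppp1r15b also passed there (-0.59, SE 0.15). For the ZT12 session 6 passed (8.22%, beside 10.2% of all genes), with Txndc11 higher at +3h (0.45, SE 0.11) and Creb3l1 (-1.28, SE 0.33), Ddit3 (-0.94, SE 0.27) and Fkbp14 (-0.61, SE 0.18) lower.

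Sedentary muscle showed what the same genes do over the day. Across Sed ZT0, ZT4, ZT12 and ZT16 the levels of 8 of the 34 genes differed, beside 17.1% of all genes, a share of the list not far above that background. Herpud1, which links the degradation ligase to its substrates and carries the ERSE-II, was at 105, 106 and 106 CPM at ZT0 and 101, 103 and 103 CPM at ZT4. It was at 120, 134 and 128 CPM at ZT12 and 125, 140 and 135 CPM at ZT16 (adjusted p = 0.00064). The groups of the light phase and of the dark phase did not overlap.

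Sdf2l1 was at 2.62, 2.48 and 3 CPM at ZT0, 2.59, 2.21 and 2.41 CPM at ZT4, 2.01, 1.61 and 1.64 CPM at ZT12 and 2.75, 2.73 and 2.68 CPM at ZT16 (adjusted p = 0.0078). Manf and Dnajc3 also had their lowest group at ZT12 (adjusted p = 0.01 and 0.013). Sec61b, a subunit of the translocation channel, had its highest group at ZT12, with 8.71, 10.4 and 8.92 CPM at ZT0, 9.59, 12.1 and 10.4 CPM at ZT4, 13.6, 14.6 and 12.4 CPM at ZT12 and 10.1, 10.4 and 10.3 CPM at ZT16 (adjusted p = 0.011). Ssr3, of the translocon-associated complex, was at 134, 140 and 128 CPM at ZT0, 126, 140 and 139 CPM at ZT4, 154, 151 and 142 CPM at ZT12 and 127, 113 and 134 CPM at ZT16 (adjusted p = 0.038). Sel1l (adjusted p = 0.043) and Hyou1 (adjusted p = 0.039) were the remaining ones. The call for Sel1l was lost without any one sedentary library but Sed ZT16 replicate 3, and that for Hyou1 without any but Sed ZT0 replicate 2. That for Ssr3 was lost without replicate 1 or 3 of Sed ZT0, or replicate 1 or 2 of Sed ZT12 or Sed ZT16.

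The time points that serve as controls of the 2 sessions were also compared in pairs. Between Sed ZT12 and Sed ZT0 4 genes were higher (11.8%) and 3 lower (8.82%), beside 7.58% and 8.56% of all genes. The shares of the list were not far above that background. Sec61b (0.53, SE 0.11, adjusted p = 0.0035), Edem2 (0.48, SE 0.15, adjusted p = 0.033), Herpud1 (0.27, SE 0.07, adjusted p = 0.01) and Sel1l (0.20, SE 0.05, adjusted p = 0.012) were higher at ZT12. Sel1l, the adaptor of the HRD1 ligase, was at 58.7, 58 and 59 CPM at ZT0 and 67.6, 67.2 and 66.3 CPM at ZT12. Sdf2l1 (-0.62, SE 0.14, adjusted p = 0.0043), Manf (-0.45, SE 0.13, adjusted p = 0.027) and Dnajc3 (-0.32, SE 0.07, adjusted p = 0.0046) were lower there. The call for Edem2 was lost without Sed ZT0 replicate 1 or 3 or Sed ZT12 replicate 1 or 2. That for Manf was lost without Sed ZT0 replicate 2 or 3 or Sed ZT12 replicate 2. That for Herpud1 was lost without Sed ZT12 replicate 2. Manf was at 9.57, 10.7 and 11.1 CPM at ZT0 and 8.21, 6.94 and 7.83 CPM at ZT12, and Dnajc3 at 38.2, 40.8 and 42.3 CPM at ZT0. Between ZT12 and ZT0 1 of the 8 tested genes with an ERSE passed, and 5 of the 20 with a window and none.

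Sed ZT0 also served as the control for TM +0h ZT0, and Sed ZT12 for TM +0h ZT12, so these values are not independent of the treadmill ones. Between Sed ZT16 and Sed ZT4 2 genes passed, beside 7.16% of all genes: Herpud1 was higher by 0.38 (SE 0.07, adjusted p = 0.0012) and Eif2ak3, the PERK gene, lower by 0.37 at ZT16. Eif2ak3 was at 6.69, 7.43 and 6.9 CPM at ZT4 and 5.9, 5.09 and 5.28 CPM at ZT16 (log2 -0.37, SE 0.11, adjusted p = 0.039). Its groups were apart, but the call was lost without any of Sed ZT4 replicates 1, 2 and 3 and Sed ZT16 replicates 2 and 3. None of the 10 chaperones and co-chaperones passed, but all 10 changes were above 0, with a median of 0.14 against 0.00 for all genes. At an unadjusted p under 0.05 there were 3: Manf (0.41, SE 0.13), Hspa5 (0.28, SE 0.11) and Hyou1 (0.23, SE 0.08). Sed ZT4 and Sed ZT16 are the controls at +3h, so these differences enter the session difference there.

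The count of 8 over the sedentary groups was 2 without Sed ZT12 replicate 2 and 5 without Sed ZT0 replicate 1, Sed ZT0 replicate 3 or Sed ZT16 replicate 1, and the count of 7 between ZT12 and ZT0 was 4 without Sed ZT12 replicate 2. Adipocyte markers summed to 1486 to 3791 CPM in Sed ZT12 and 1072 to 1730 CPM in Sed ZT0, with 1 of 8 raised (Cidec). Endothelial markers summed to 186 to 252 CPM and 268 to 319 CPM, with 4 of 6 lowered. Their part in the result was not tested.

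**Figure D4:**
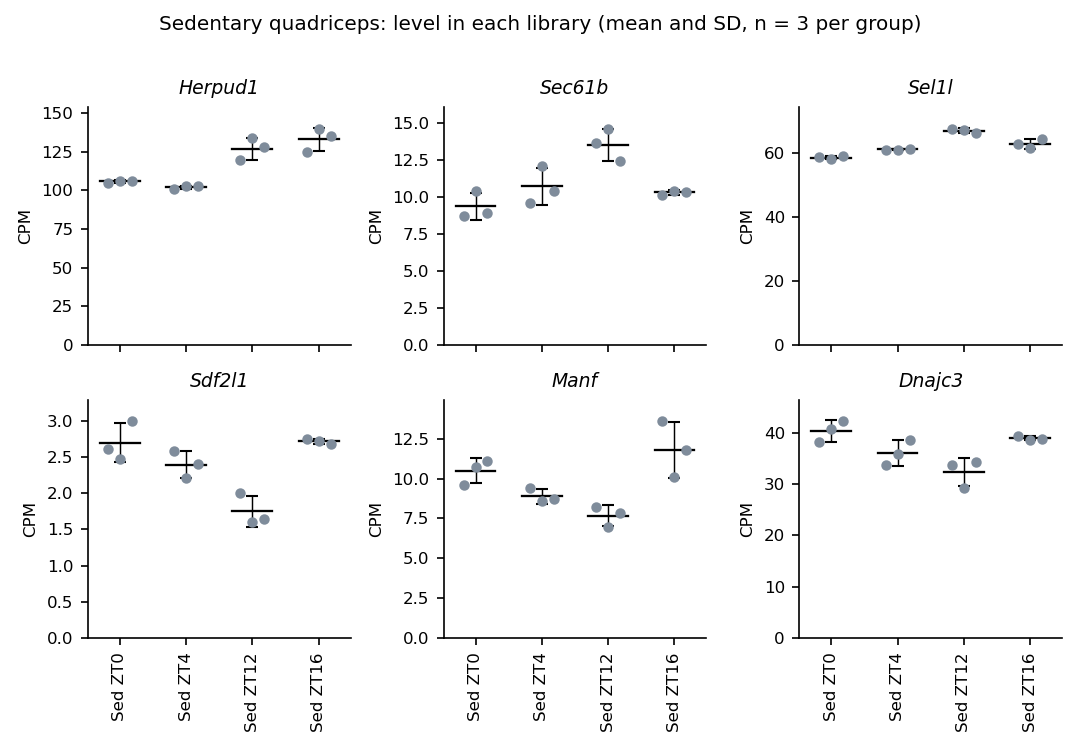
Level (CPM) of 6 genes in each sedentary quadriceps library at ZT0, ZT4, ZT12 and ZT16; points are libraries, lines and bars the mean and SD of 3. Herpud1 is at 101 to 106 CPM at ZT0 and ZT4 and 120 to 140 CPM at ZT12 and ZT16, whereas Sdf2l1, Manf and Dnajc3 have their lowest mean at ZT12.

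Of the other 73 ER genes 6 differed among the sedentary groups (8.22%), fewer than the 17.1% of all genes. Creb3l1, an ATF6-like factor of matrix-secreting cells, had the smallest p and a range of 1.87 between group means on the log2 scale, followed by Ddit3 (1.01), Atf4 (0.35) and Ppp1r15a (0.73). Between ZT12 and ZT0 Creb3l1 was lower by 1.87 at ZT12 (log2 -1.87, SE 0.23), Atf4 changed by -0.23 (SE 0.06), and Sil1, a nucleotide exchange factor of BiP, by 0.31 (SE 0.07). Chac1, a glutathione-degrading target of ATF4, was higher by 2.13 (SE 0.64). Between ZT16 and ZT4 Ddit3 was higher by 0.99 (SE 0.19), Ube2j1 was higher by 0.25 (SE 0.08), and Ppp1r15a changed by -0.56 (SE 0.15).

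In gastrocnemius the comparison was between mice with a wheel by day and mice with a wheel by night. At ZT4, within the light phase, 10 of the 34 genes were higher in Day than in Night mice and 1 was lower. Over all 14523 tested genes 6.36% were higher and 6.78% lower. The median change was 0.14, against -0.01 for all genes. No called gene had overlapping groups, but these genes were picked by the test on the same libraries. The 10 were Hspa5, Hsp90b1, Dnajb9, Manf, Canx, Syvn1, Edem1, Ern1, Atf6 and Spcs2, and the lower one was Sec61b.

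Hspa5 was at 135, 131, 119 and 140 CPM in Night ZT4 and 171, 164, 170 and 171 CPM in Day ZT4 (0.36, SE 0.05, adjusted p = 0.00012). Hsp90b1 was at 90.2, 89.6, 81.5 and 85.6 CPM and 110, 106, 106 and 111 CPM (0.32, SE 0.05, adjusted p = 0.00038). Ern1 had the largest change, with 6.81, 7.57, 6.02 and 6.58 CPM in Night mice and 10.5, 8.6, 11.6 and 12.6 CPM in Day mice (0.68, SE 0.11, adjusted p = 0.00042). In each of these genes all 4 Day libraries were above all 4 Night libraries.

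Dnajb9 was at 16.4, 16.2, 14.6 and 17.8 CPM in Night ZT4 and 20.1, 20.6, 22.1 and 20.8 CPM in Day ZT4 (0.36, SE 0.06, adjusted p = 0.00054). Manf was at 9.04, 8.65, 7.41 and 8.31 CPM and 13.6, 12, 11.1 and 11.6 CPM (0.53, SE 0.09, adjusted p = 0.0013). Edem1 was at 6.72, 6.86, 6.79 and 6.05 CPM and 8.94, 8.98, 8.37 and 8.06 CPM (0.38, SE 0.09, adjusted p = 0.0099). Atf6, which did not pass in any treadmill comparison, was higher here, at 31, 34, 31.5 and 34.9 CPM in Night ZT4 and 37.6, 36.7, 42.5 and 37.4 CPM in Day ZT4 (0.23, SE 0.06, adjusted p = 0.02). That call was lost without Night ZT4 replicate 1, Night ZT4 replicate 3 or Day ZT4 replicate 3, the library at 42.5 CPM.

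Xbp1 was at 41.7, 44.5, 42.2 and 43 CPM in Night ZT4 and 46.5, 45.2, 49 and 46.2 CPM in Day ZT4 and did not pass, and Eif2ak3 lay between 5.01 and 6.32 CPM in the 8 libraries. None of the 5 genes of disulphide exchange passed. Of the 8 tested genes with an ERSE 4 were higher, and of the 20 with a window and none 4 were higher and 1 lower. The count was 6 without Night ZT4 replicate 1 and 7 without Night ZT4 replicate 3. The call for Canx was lost without Night ZT4 replicate 1, 2 or 3 or Day ZT4 replicate 2, 3 or 4. Endothelial markers summed to 263 to 287 CPM in Night ZT4 and 213 to 238 CPM in Day ZT4, with 4 of 6 lowered (Pecam1, Cdh5, Kdr and Vwf), and macrophage markers to 65.2 to 79.2 and 48.9 to 61.4 CPM, with 1 of 6 lowered. No marker list had a raised member in this comparison, and the part of these markers in the result was not tested. Of the other 73 ER genes 7 were higher (9.59%, beside 6.36% of all genes) and 2 lower (2.74%, beside 6.78%). Those with the smallest p were Sec62, of post-translational translocation (0.18, SE 0.04), Pdia5 (-0.58, SE 0.13), Marchf6 (0.17, SE 0.04) and Sesn2 (-0.48, SE 0.13).

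At ZT16, within the dark phase, none of the 34 genes differed between Day and Night mice in edgeR, beside 0.565% of all genes. At an unadjusted p under 0.05 there were 5 of the 34, beside 1942 of all 14523 genes, a share near the background. DESeq2 called 0 of the 34. Hspa5 was at 142, 157, 153 and 144 CPM in Night ZT16 and 145, 154, 141 and 144 CPM in Day ZT16, a change of -0.03 with an approximate 95% interval of -0.12 to 0.07. Hsp90b1 changed by -0.06 (interval -0.16 to 0.03), Manf by -0.18 (-0.37 to 0.01) and Ern1 by -0.18 (-0.39 to 0.03). Xbp1 lay between 43.1 and 49.3 CPM, Atf6 between 32.6 and 37.9 CPM and Eif2ak3 between 3.5 and 4.95 CPM in the 8 libraries at ZT16. None of the other 73 ER genes passed either, with 9 at an unadjusted p under 0.05, also a share near that of all genes.

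Between ZT16 and ZT4 in Night mice 3 genes were higher and 3 lower, beside 9.41% and 9.38% of all genes, shares near the background. Herpud1 was at 103, 103, 104 and 116 CPM at ZT4 and 152, 135, 144 and 150 CPM at ZT16 (0.45, SE 0.06, adjusted p = 1.6e-05). Dnajb9 reached 23, 20.3, 22.7 and 23 CPM at ZT16 (0.45, SE 0.06, adjusted p = 2e-05), and Hspa5 was higher by 0.18 (SE 0.05, adjusted p = 0.011). Derl1, another derlin, was lower, with 69.8, 68.7, 69 and 66.5 CPM at ZT4 and 62.4, 64.1, 60.7 and 62 CPM at ZT16 (-0.14, SE 0.04, adjusted p = 0.013). Eif2ak3 was at 5.01, 6.09, 5.58 and 6.32 CPM and 4.1, 4.54, 4.08 and 4.88 CPM (-0.39, SE 0.10, adjusted p = 0.013). Pdia3 was at 35.3, 37.2, 32.6 and 35.4 CPM and 31.1, 33.1, 30.2 and 30.4 CPM, groups that overlapped (-0.17, SE 0.05, adjusted p = 0.036). Its call was lost without Night ZT4 replicate 1, 2 or 4 or Night ZT16 replicate 1, 3 or 4.

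In Day mice 15 genes were lower at ZT16 than at ZT4 and 2 were higher, beside 7.17% and 7.7% of all genes, with a median change of -0.15. The 15 were 5 chaperones, both lectin chaperones, 3 genes of disulphide exchange, 2 of degradation, 2 sensors and Sec61a1. Hsp90b1 fell from 110, 106, 106 and 111 CPM to 73.3, 82.7, 81.3 and 82.1 CPM (-0.44, SE 0.05, adjusted p = 7.8e-06). Ern1 fell to 6.35, 7.24, 6.28 and 5.82 CPM (-0.76, SE 0.11, adjusted p = 8.6e-05). Neither gene's ZT16 libraries reached any of its ZT4 libraries.

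Pdia6 was at 43.6, 40.5, 38.2 and 43.1 CPM in Day ZT4 and 32.6, 34.6, 30.4 and 32.6 CPM in Day ZT16 (-0.35, SE 0.05, adjusted p = 0.00018). Pdia3 was at 38.1, 36.7, 35.2 and 37.2 CPM and 26.2, 31.5, 30.6 and 29.4 CPM (-0.32, SE 0.05, adjusted p = 0.00054). Creld2 was at 7.06, 6.25, 5.29 and 5.74 CPM and 4.05, 4.07, 3.92 and 4.17 CPM (-0.59, SE 0.10, adjusted p = 0.0006), and Manf fell to 8.52, 8.72, 7.4 and 8.44 CPM (-0.55, SE 0.09, adjusted p = 0.00063). Herpud1 (0.31, SE 0.06) and Sec61b (0.28, SE 0.07) were the genes that rose. This comparison shares the Day ZT4 libraries with the Day against Night comparison at ZT4.

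The time effects of the 2 schedules were tested against each other, as ZT16 minus ZT4 in Day mice less that in Night mice. Of the 34 genes 7 were lower and 1 higher, beside 5.07% and 4.68% of all genes, with a median of -0.13 against 0.01 for all genes. The lower ones were Hspa5 (-0.39, SE 0.07, adjusted p = 0.0012), Ern1 (-0.87, SE 0.15, adjusted p = 0.0012), Hsp90b1 (-0.39, SE 0.07, adjusted p = 0.0015), Dnajb9 (-0.44, SE 0.08, adjusted p = 0.0016), Manf (-0.71, SE 0.13, adjusted p = 0.0022), Creld2 (-0.59, SE 0.14, adjusted p = 0.013) and Edem1 (-0.45, SE 0.13, adjusted p = 0.032). The call for Edem1 was lost without Night ZT4 replicate 4 or Day ZT4 replicate 1 or 2. It was also lost without Night ZT16 replicate 2 or 3 or Day ZT16 replicate 1, 3 or 4. Creld2 was at 5.16, 4.92, 4.43 and 5.33 CPM in Night ZT4 and 4.1, 5.31, 5 and 5.47 CPM in Night ZT16, groups that overlapped, and did not pass there. Sec61b was the higher one (0.38, SE 0.10, adjusted p = 0.023), with means of 13.6 and 12.7 CPM in Night mice and 11.5 and 13.9 CPM in Day mice at ZT4 and ZT16. Across the 4 groups Day ZT4 had the highest mean for 24 of the 34 genes, and the share over all genes was not computed.

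**Figure D5:**
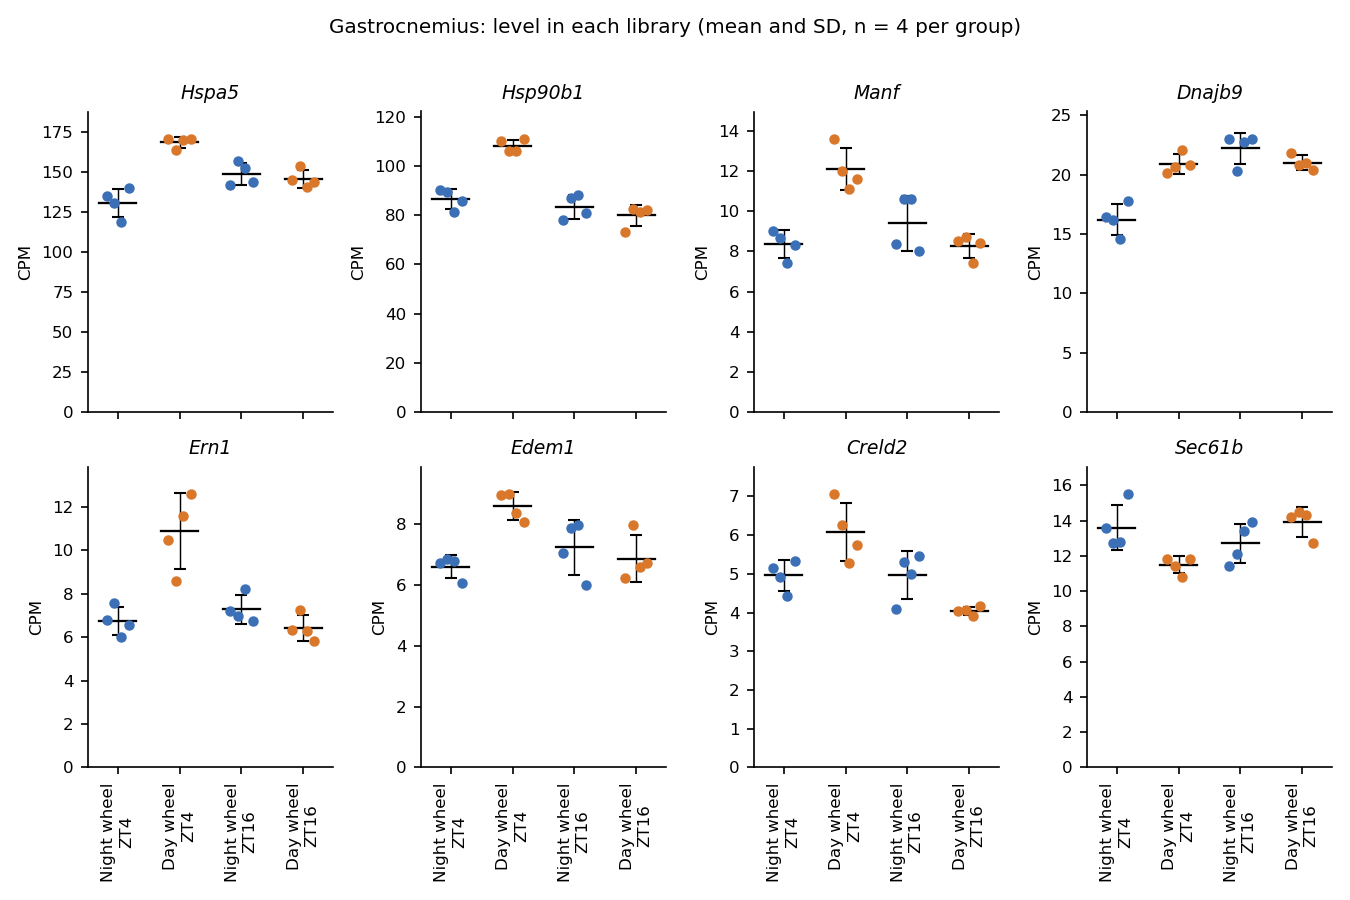
Level (CPM) of 8 genes in each gastrocnemius library, by wheel schedule and time; points are libraries, blue for Night and orange for Day, lines and bars the mean and SD of 4. For Hspa5, Hsp90b1, Manf and Ern1 the 4 Day ZT4 libraries lie above all libraries of the other 3 groups, whereas Dnajb9 is at 20.3 to 23 CPM in Night ZT16 and Sec61b is lowest in Day ZT4.

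The shares of the other 73 ER genes that passed between times were below those of all genes in both schedules, and for the difference between schedules. Of the 73, 5 were higher and 5 lower between ZT16 and ZT4 in Night mice, with Ppp1r15b (0.39, SE 0.06), Pdia5 (-0.67, SE 0.13), Creb3l1 (-1.16, SE 0.23) and Ube2j1 (0.20, SE 0.05) leading. In Day mice 4 were higher and 5 lower, with Ddit3 (0.99, SE 0.15), Herpud2 (-0.25, SE 0.04), Stt3a (-0.30, SE 0.05) and Sesn2 (0.67, SE 0.13) leading. For the difference between schedules 2 were higher and 2 lower: Pdia5 (0.85, SE 0.18), Sesn2 (0.61, SE 0.18), Ppp1r15b (-0.35, SE 0.09) and Fkbp11 (-1.48, SE 0.40).

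Over the 8 quadriceps groups the group means of the 34 genes spanned from 1.07 to 2.33 times between lowest and highest, with a median of 1.4 times. TM +0h of the ZT0 session had the highest mean for 13 genes and TM +3h of that session for 6, and the shares over all genes were not computed. For Hspa5 the order of group means was TM +0h ZT0 (241 ± 45.1 CPM, SD, n = 3), TM +3h ZT0 (230 ± 33.4), TM +3h ZT12 (181 ± 2.55), Sed ZT16 (171 ± 9.74), TM +0h ZT12 (167 ± 9.2), Sed ZT0 (145 ± 9.18), Sed ZT4 (141 ± 7.86) and Sed ZT12 (136 ± 2.49). Of the neighbours in this order, TM +3h ZT12 and TM +3h ZT0 did not overlap, nor did Sed ZT0 and TM +0h ZT12, and the rest overlapped. Reads from Hspa5 and the overlapping gene Rabepk, and likewise from Syvn1 and Mrpl49, may not be told apart, since no source used here states whether counting used strand.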

How the data were processed

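Stranded mRNA libraries (TruSeq, per the labels' protocols) of quadriceps (24) and gastrocnemius (16) were sequenced in 2 lanes each. The authors deposited kallisto estimated counts for 23621 Entrez gene identifiers, with 1 column per lane. The submitters' processing notes name bcl2fastq 2.20.0.422, kallisto 0.46.2, DESeq2 1.26.0 and the builds GRCm38.p6 and mm10. No source used here states how transcripts were summed to genes or whether the strand was used in counting.

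Both lane columns of each library were added up and the sums rounded. Symbols came from the RefSeq table of GRCm38.p6, and 7 identifiers had no match. Each muscle was fitted on its own with edgeR 4.0.16 (R 4.3.3; TMM scaling, filterByExpr with a minimum count of 10, robust quasi-likelihood F test with all groups of the muscle in 1 fit), with Benjamini-Hochberg adjustment over all 15097 or 14523 genes tested and a threshold of 0.05. The code was tested on simulated data. Approximate 95% intervals are the estimate ± 1.96 SE. Depth is given by the total counts in the report. Levels and medians carry no correction for gene length, so they are compared between libraries and not between genes.

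The 35 genes, the 73 other ER genes and the 9 marker lists were chosen with earlier results of these data known. Values per library are given for Hspa5, Xbp1, Ern1, Atf6, Eif2ak3 and up to 6 listed genes of smallest p in each comparison, and up to 4 of the other ER genes are named. Alternatives were DESeq2 1.42.0, RLE size factors, no filter on low counts, fits of only the libraries compared, the replicate number as a block, leaving out each library, and the other sedentary control. Figures were drawn with matplotlib 3.10.9.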

Additional observations from a re-analysis of the deposited data

Results flagged for a closer look

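The levels of the genes whose gastrocnemius values are given one by one make 56 sets of 4 libraries, and 5 sets held a library that lay far from the other 3 by Dixon's test, and chance gives about 1 in 20. They were the highest Atf6 library of Day ZT4 (42.5 CPM), the lowest Dnajb9 library of Night ZT16 (20.3 CPM), the highest Herpud1 library of Night ZT4 (116 CPM), the lowest Hsp90b1 library of Day ZT16 (73.3 CPM) and the lowest Hspa5 library of Day ZT4 (164 CPM).

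Changes that differed between conditions in edgeR's test of the difference were of 3 kinds. At +3h the ZT12 change was below the ZT0 change for 9 genes, with log2 differences of -0.70 for Hsp90b1, -0.63 for Hyou1, -1.02 for Manf, -0.48 for Dnajc3, -0.86 for Creld2, -0.91 for Pdia4, -0.62 for Hspa5, -0.77 for Sdf2l1 and -0.49 for Pdia6; with the other sedentary controls none of these passed. The change at +3h minus that at +0h was -0.56 for Syvn1 and 0.74 for Ern1 in the ZT0 session, and 0.51 for Dnajb9, -0.38 for Dnajc3 and 0.70 for Ern1 in the ZT12 session. The time effect in Day mice less that in Night mice was -0.39 for Hspa5, -0.87 for Ern1, -0.39 for Hsp90b1, -0.44 for Dnajb9, -0.71 for Manf, -0.59 for Creld2, 0.38 for Sec61b and -0.45 for Edem1.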

How the results depend on the processing

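Over 16 comparisons, 136 gene values past the threshold or named in the text were recomputed. All 136 kept direction and side of the threshold with RLE size factors, and 134 with DESeq2, where the other 2 passed but had not in edgeR; 6 no longer passed with no filter on low counts and 15 in fits of only the libraries compared. With no filter the count of genes was 0 at +0h of the ZT12 session (1 in the report) and 1 between Sed ZT16 and Sed ZT4 (2 in the report); in fits of only the libraries compared these counts were 0 and 1, and that of the session difference at +3h was 5 (9 in the report). With the other sedentary control 3 genes passed at +0h and 10 at +3h of the ZT12 session. For the differences between sessions this alternative was chosen after seeing the data: 12 genes passed at +0h (0 in the report) and 1 at +3h (9 in the report, all lost). Dnajc3 at +3h of the ZT12 session (-0.03) and Sdf2l1 at +3h of the ZT0 session (0.30) no longer passed. That control turned the sign of 11 estimates: for the session difference at +3h Sdf2l1 (0.03, a gene that passed in the report) and Xbp1 (0.01), and, none past the threshold in the report, at +0h of the ZT12 session Creld2 (-0.09), Hsp90b1 (-0.14), Hspa5 (-0.03), Hyou1 (-0.14) and Manf (-0.37), and at +3h Creld2 (0.26), Hyou1 (0.13), Manf (0.41) and Sdf2l1 (0.33). The cause was not tested.

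Leaving out 1 library gave 9 to 16 genes at +0h and 13 to 16 at +3h of the ZT0 session, 0 to 1 and 4 to 6 in the ZT12 session, and 0 to 1 and 4 to 9 for the differences between sessions. The counts were 1 to 3 (ZT0) and 0 to 4 (ZT12) for +3h minus +0h, 2 to 7 over the sedentary groups, 4 to 8 and 1 to 2 for their pairs, 6 to 12 and 0 to 0 between wheel schedules at ZT4 and ZT16, 5 to 6 and 13 to 17 between times in Night and Day mice, and 7 to 9 for the schedules' difference. Of 1140 single-gene values so obtained 185 no longer passed and 7 changed sign: at +3h of the ZT12 session Creld2 ranged from -0.17 to 0.03, Hsp90b1 from -0.02 to 0.09 and Pdia4 from -0.35 to 0.00, and the session difference of Xbp1 at +3h from -0.12 to 0.03.

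The main fits did not pair libraries by replicate number. Deviations of same-numbered libraries had a mean correlation of -0.00382 in quadriceps and 0.00974 in gastrocnemius, over 0.1 in 18 of 84 and 3 of 24 pairs. Pairs with different numbers had means of 0.00179 and -0.00323. In quadriceps 8 of 24 libraries, and in gastrocnemius 10 of 16, correlated best with their own number. These values do not settle whether same-numbered gastrocnemius libraries belong together. With the replicate block 17 genes passed at +0h and 15 at +3h of the ZT0 session, 1 and 5 in the ZT12 session, 8 for the session difference at +3h and 6 over the sedentary groups; Hspa5 no longer passed for that difference, nor Sel1l and Ssr3 over the sedentary groups. No depth was too low for the 34 genes to be tested; Derl3 was too low in both muscles.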
